A study of Mus musculus with 34 samples.

Results

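The podocyte genes described here are 8 genes chosen by name, *Nphs1*, *Podxl*, *Synpo*, *Wt1*, *Ptpro*, *Magi2*, *Plce1* and *Cd2ap*, out of the 23509 genes counted in each of 34 whole-kidney RNA-seq libraries. All 8 were among the 15644 genes tested. The mice were of the C57BL6 strain. UNT (n = 12) were untreated wild-type mice without the transgene. PBS (n = 11) and RGLS4326 (n = 11) were *Pkd2*-KO mice, Pkhd1/cre;Pkd2 F/F, in which the *Pkhd1* promoter drives Cre in kidney tubules. The labels spell the genotype Pdk2KO. The study's text counts fewer PBS mice for its RNA-seq than the labels do, besides a control-oligonucleotide group that no label names. Groups here follow the labels, and this difference was not resolved. *Pkd2*-KO mice received subcutaneous PBS, or RGLS4326 at 20 mg per kg, on postnatal days 10, 11, 12 and 19, and kidneys were taken on day 28. The UNT mice differ from the PBS mice in both genotype and injections, and these cannot be told apart.

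Podocytes are the epithelial cells that cover the capillaries of the glomerulus. Their interlocking foot processes are joined by the slit diaphragm, a cell junction built from nephrin and its partners, and the whole structure is held in shape by actin. Loss of several of these proteins, among them nephrin, WT1 and phospholipase C epsilon, causes protein-losing kidney disease. RGLS4326 is an anti-miR, a synthetic single-stranded oligonucleotide made to pair with the seed that the miR-17 family of microRNAs shares. These microRNAs repress mRNAs through matches to the seed, mainly in the 3′UTR.

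The mature sequences that RGLS4326 was designed against are shown because the seed matches searched for in the podocyte genes follow from them, and capitals mark the seed, bases 2 to 8. They are mouse RefSeq sequences. Besides miR-17-5p, 6 other mature mouse miRNAs in that table carry the same seed, of which 3 are shown.
mmu-miR-17-5p: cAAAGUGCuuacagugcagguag
mmu-miR-20a-5p: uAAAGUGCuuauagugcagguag
mmu-miR-93-5p: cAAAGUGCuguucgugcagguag
mmu-miR-106b-5p: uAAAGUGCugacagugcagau

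For each gene, the longest 3′UTR in the annotation was searched on the transcript strand for GCACTTT (a 7mer-m8 match), CACTTTA (7mer-A1) and GCACTTTA (8mer, which contains both and was counted once). Among the podocyte genes, 2 of 8 (25%) held a match, against 3120 of 14831 tested genes with an annotated 3′UTR (21.0%). Both were 7mer-m8 matches. The one in *Ptpro* lay at chr6:137462980-137462986 (GRCm38, forward strand), base 900 of a 3′UTR of 1153 bases, and was present in 4 of 4 annotated 3′UTRs of the gene. The one in *Magi2* lay at chr5:20703617-20703623 (forward strand), base 1491 of 2666, and was present in 2 of 8. The matches are in capitals with their flanks, in DNA letters on the transcript strand.
Ptpro: gctgtaaaaatGCACTTTctttctccacc
Magi2: gctcttcatttGCACTTTgacaaagtatt
None of the 3 kinds of match was found in any annotated 3′UTR of the other 6 genes. A match is a match of letters and was not measured as a site of binding.

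The libraries held 17603122 to 54981992 reads in genes, of which 13904 to 38424 per library, 0.0612% to 0.0971% of the reads in genes, fell in the 8 podocyte genes. The smallest count of any of the 8 in a library was 231 reads, for *Magi2*. *Pkd2*, the targeted gene, ranged from 219.6 to 337.7 CPM (counts scaled to library depth) in UNT, 98.0 to 214.5 in PBS and 170.0 to 236.9 in RGLS4326, so no *Pkd2*-KO mouse of the PBS group reached the lowest UNT mouse. The share of reads that fell in no gene was 9.84% to 11.3% in UNT, 5.18% to 8.995% in PBS and 4.94% to 12.0% in RGLS4326 libraries. It exceeded every PBS library in 4 RGLS4326 libraries, replicates 5, 6, 7 and 11. The numbering within the names of the tables restarts, which splits the libraries into 3 sets, each with all 3 groups. Replicates 5, 6 and 7 are all the RGLS4326 libraries of set 2. The calls of RGLS4326 vs PBS are given with and without these 4 libraries. Levels relative to other podocyte genes, correlations and the values of RGLS4326 vs UNT are given with them only.

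All levels are CPM scaled by TMM factors, and levels of different genes are compared only per kilobase of merged exons. Merged exons join all annotated transcripts of a gene and can be longer than the mRNA that was made. They held 15864 bases for *Cd2ap* and 15998 for *Plce1*, beside 6620 for *Nphs1*. The values per length and their order therefore depend on this divisor. By this measure *Podxl* was the highest of the 8 in every group, with a mean of 74.6 CPM per kb in UNT, 38.6 in PBS and 43.6 in RGLS4326. In UNT it was followed by *Cd2ap* at 10.0, *Nphs1* at 9.93, *Synpo* at 9.26, *Ptpro* at 5.45, *Wt1* at 3.21, *Magi2* at 1.33 and *Plce1* at 1.09 CPM per kb. *Cd2ap*, *Nphs1* and *Synpo* overlapped one another in their UNT ranges, as did *Magi2* and *Plce1*, and the other neighbours in this order did not overlap. In PBS kidneys the order was *Podxl*, *Synpo* (16.5), *Cd2ap* (15.3), *Ptpro* (3.53), *Nphs1* (3.02), *Wt1* (2.19), *Plce1* (1.74) and *Magi2* (0.970), so *Nphs1* stood below *Ptpro* there. The ranges of *Synpo* and *Cd2ap*, of *Ptpro*, *Nphs1* and *Wt1*, and of *Wt1*, *Plce1* and *Magi2* overlapped from neighbour to neighbour. In RGLS4326 kidneys *Cd2ap* (16.4) and *Synpo* (15.3) again came next after *Podxl*, with overlapping ranges, followed by *Ptpro* (4.04), *Nphs1* (3.90), *Wt1* (2.63), *Plce1* (1.63) and *Magi2* (1.07), of which *Ptpro*, *Nphs1* and *Wt1* overlapped from neighbour to neighbour and the rest did not.

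The comparison of PBS with UNT asks how cystic kidneys differ from normal ones. The 8 genes split: 5 were lower in PBS kidneys (*Nphs1*, *Podxl*, *Ptpro*, *Wt1* and *Magi2*) and 3 were higher (*Synpo*, *Plce1* and *Cd2ap*), each with an adjusted p under 0.05. The largest fall was that of *Nphs1*, to 30.4% of the UNT mean, and the largest rise that of *Synpo*, to 178%. So many genes differed in this comparison, 82.1% of those tested (43.1% higher, 39.0% lower), that being called sets no gene apart. The median log2 fold change of the 8 was -0.50, beside 0.04 over all tested genes. The CPM ranges of the 2 groups did not overlap for 5 of the 8 genes, as they did not for 42.5% of all tested genes (22.7% higher, 19.8% lower). In bulk kidney, fewer cells of a type and less RNA per cell cannot be told apart.

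**Figure D1:**
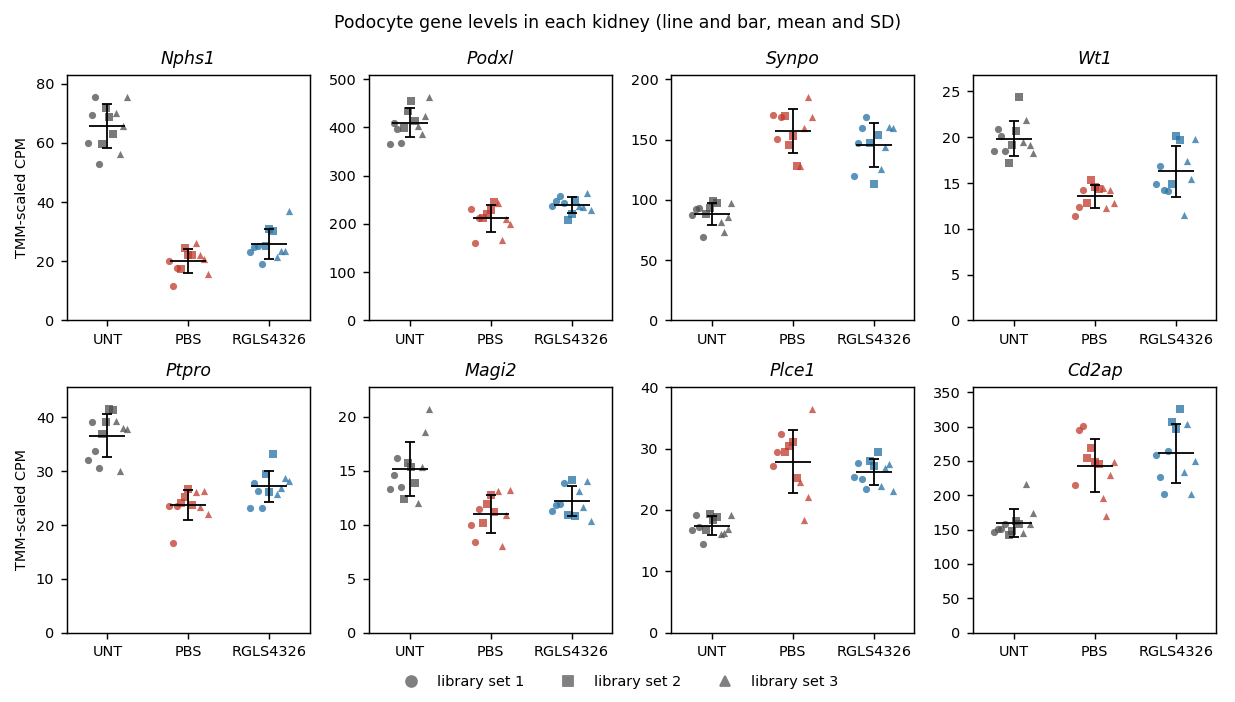
TMM-scaled CPM (y axis, from 0, a scale of its own in each panel) of the 8 podocyte genes in each kidney by group, with circles, squares and triangles for library sets 1, 2 and 3, and the mean with a bar of 1 SD. *Nphs1*, *Podxl*, *Wt1* and *Ptpro* sit lower, and *Synpo* higher, in every PBS kidney than in every UNT kidney, and all 8 genes overlap between PBS and RGLS4326.

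Of the slit diaphragm genes, *Nphs1* (chr7:30458315-30487223, forward strand) encodes nephrin, the adhesion molecule that spans the gap between foot processes. Its level was 52.8 CPM in the lowest UNT mouse, 67.2 at the median and 75.5 in the highest, and 11.8, 20.7 and 26.1 CPM in PBS mice. Every PBS kidney was below every UNT kidney, with the lowest value in PBS replicate 2. The log2 fold change was -1.71 (SE 0.11, adjusted p = 5.45e-17). The annotated antisense gene *Nphs1os* shares 597 exon bases with it on the opposite strand and had at most 1 read in any library.

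*Magi2* (chr5:19227036-20704792, forward strand) encodes a scaffold protein that binds nephrin. Its level was 12.0, 15.0 and 20.7 CPM (lowest, median and highest) in UNT and 8.06, 11.2 and 13.2 CPM in PBS mice. The ranges overlapped, and it was the smallest fall among the 5 (log2 fold change -0.46, SE 0.09, adjusted p = 2.2e-05). Scaled by library size only, which moved the median of all tested genes to 0.33, its log2 fold change was -0.16 (adjusted p = 0.0997), but relative to the median of all genes it was -0.49 under both scalings. With the percentage of reads lacking a unique alignment as a covariate it was -0.80. An annotated transcript, *Gm29254*, shares 203 of its exon bases on the same strand and was not used here.

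*Cd2ap* (chr17:42792951-42876665, reverse strand) encodes an adaptor that ties the slit diaphragm to actin and that other epithelial cells make as well. Its level was 142.8, 154.3 and 216.8 CPM in UNT and 170.4, 248.6 and 300.1 CPM in PBS mice. UNT replicate 10 was well above the other UNT mice, which did not exceed 174.6 CPM, and PBS replicate 9 was the lowest of its group. The rise was 0.61 on the log2 scale (SE 0.09, adjusted p = 1.21e-07), and within library set 3, which holds both of those mice, it was 0.28 (adjusted p = 0.150). With the percentage of reads lacking a unique alignment as a covariate it was 1.19.

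On the podocyte surface, *Podxl* (chr6:31519488-31563981, reverse strand) encodes podocalyxin, the sialoprotein whose negative charge keeps foot processes apart and that vascular endothelium makes as well. Its level was 366.2, 406.4 and 463.0 CPM in UNT and 159.8, 212.6 and 245.7 CPM in PBS mice. The groups did not overlap, and PBS replicates 2 and 9 were the lowest kidneys. The log2 fold change was -0.95 (SE 0.06, adjusted p = 4.4e-16), a fall to 51.7% of the UNT mean.

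*Ptpro* (chr6:137252319-137463233, forward strand) encodes a receptor tyrosine phosphatase of the foot process. Its level was 29.98, 38.0 and 41.5 CPM in UNT and 16.6, 23.8 and 26.6 CPM in PBS mice. Again every PBS kidney lay below every UNT kidney. Its log2 fold change was -0.62 (SE 0.07, adjusted p = 4.09e-10).

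*Synpo* (chr18:60593973-60660142, reverse strand) encodes synaptopodin, an actin-binding protein of foot processes. Its level was 69.2, 90.4 and 99.1 CPM in UNT and 127.8, 159.4 and 185.5 CPM in PBS mice. Every PBS kidney lay above every UNT kidney, the opposite order to *Nphs1*. The rise amounted to 0.83 on the log2 scale (SE 0.07, adjusted p = 6.15e-13).

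*Plce1* (chr19:38481109-38785030, forward strand) encodes phospholipase C epsilon, a signalling enzyme. Its level was 14.5, 17.1 and 19.3 CPM in UNT and 18.3, 29.4 and 36.4 CPM in PBS mice. A single PBS mouse, replicate 9, fell within the UNT range. On the log2 scale it rose by 0.68 (SE 0.08, adjusted p = 7.7e-10).

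*Wt1* (chr2:105126529-105173616, forward strand) encodes the zinc-finger transcription factor that maintains the podocyte programme. Its level was 17.2, 19.3 and 24.4 CPM in UNT and 11.4, 14.3 and 15.3 CPM in PBS mice. The groups did not overlap. The log2 fold change was -0.55 (SE 0.08, adjusted p = 4.93e-08), and with the percentage of reads lacking a unique alignment as a covariate it was -0.22 (adjusted p = 0.342). With the percentage of reads outside genes fitted instead it was -0.26 (adjusted p = 0.0110). The percentage lacking a unique alignment was 22.8% to 25.7% in UNT and 14.8% to 19.4% in PBS libraries. The percentage outside genes was 9.84% to 11.3% in UNT and 5.18% to 8.995% in PBS libraries. Each separates the 2 groups and cannot be told apart from them.

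The other podocyte genes were read from lists of 40 further genes in all. Of these, 21 were higher in PBS than in UNT (52.5%, beside 43.1% of all tested genes) and 14 were lower (35%, beside 39.0%). The other 5 did not pass the test, and the median log2 fold change of the 40 was 0.24. With the percentage of reads lacking a unique alignment as a covariate this median was 0.01, beside 0.07 over all tested genes. It was 0.12 beside 0.03 with the percentage outside genes, and 0.53 beside 0.33 by library size only. The genes named from each list were taken by smallest p in their direction, not by size, and the counts of the lists below stand beside the same shares over all genes. The core list of 8 genes taken as the most podocyte-restricted had 6 lower, none higher and 2 not called, with a median of -1.25. Of these, *Rhpn1* fell by 1.67 on the log2 scale (SE 0.11, adjusted p = 1.32e-16).

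Slit diaphragm partners went the other way, with 8 of 11 higher, 1 lower and 2 not called. *Kirrel3* and *Kirrel*, nephrin-like adhesion molecules, rose by 2.14 (SE 0.12) and 1.60 (SE 0.09) on the log2 scale. Of the 13 genes of the cytoskeleton and foot process, 8 were higher, among them *Myo1e* (1.24, SE 0.07) and *Dag1* (1.20, SE 0.08), and 5 were lower, among them *Rhpn1* and *Clic5* (-1.22, SE 0.08). Among 6 podocyte transcription factors, 3 were higher, among them *Tcf21* (1.20, SE 0.14), 2 were lower, *Lmx1b* (-1.15, SE 0.18) and *Foxc1* (-0.38, SE 0.07), and 1 was not called. Of 10 other podocyte-enriched genes, 2 were higher, *Sulf1* (2.97, SE 0.13) and *Npnt* (1.29, SE 0.11), and 6 lower, among them *Vegfa* (-2.23, SE 0.15) and *Cdkn1c* (-1.12, SE 0.09). The 9 genes of the glomerular basement membrane had 6 higher, among them *Agrn* (1.70, SE 0.09) and *Itga3* (1.94, SE 0.10), and 3 lower, among them *Col4a3* (-1.14, SE 0.12) and *Col4a4* (-0.49, SE 0.11). Many genes of these lists are also made by tubules, stroma or macrophages, so a list's count is that of the whole kidney.

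**Figure D2:**
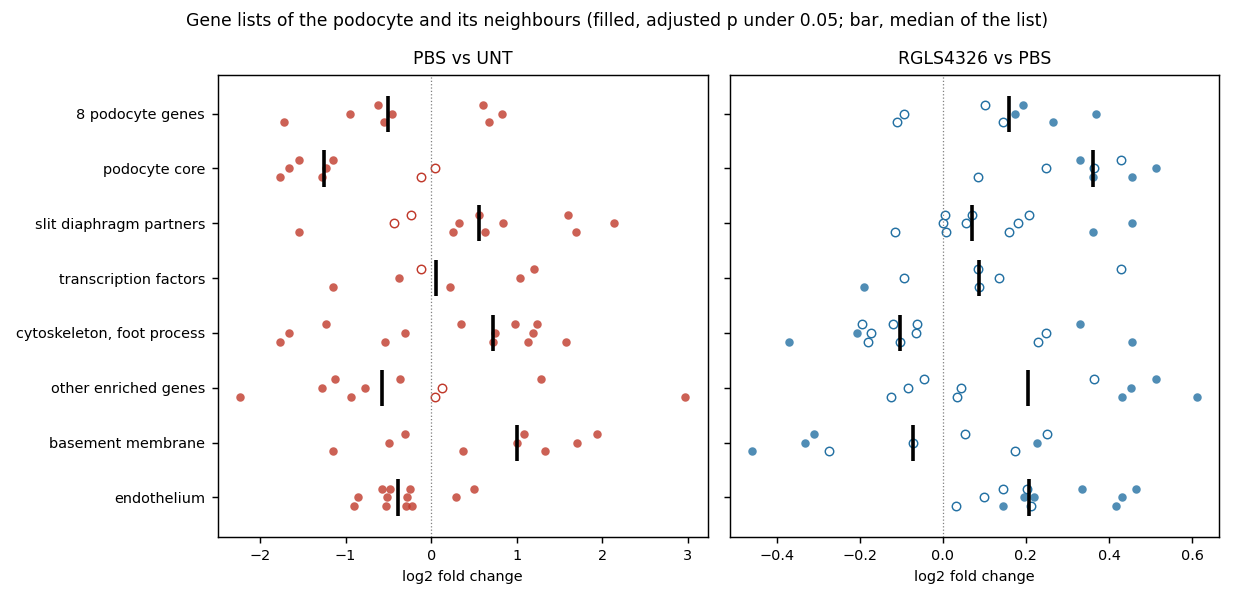
Log2 fold changes (x axis) of each gene of the 8 podocyte genes and 7 further lists (rows) in PBS vs UNT (left) and RGLS4326 vs PBS (right, on a narrower scale), filled where the adjusted p was under 0.05, with a black bar at the list's median. In PBS vs UNT the median of the podocyte core was -1.25 and that of the slit diaphragm partners 0.56, and in RGLS4326 vs PBS the median of the core was 0.36.

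Genes of the other cells of the kidney were called as well, beside 43.1% of all tested genes higher and 39.0% lower. Of 12 endothelial genes 10 were lower in PBS and 2 higher, of 10 proximal tubule genes 9 were lower (median log2 fold change -2.64), and all 6 of the thick limb and distal tubule were lower. All 9 macrophage and leukocyte genes were higher (median 4.42), with a summed level of 166.5 to 355.4 CPM in UNT against 1522 to 5110 CPM in PBS. All 5 genes of parietal epithelium, which tubules share, were higher, as were 6 of 9 of the collecting duct (3 lower) and 5 of 10 of mesangium and mural cells (4 lower, 1 not called). No gene of these lists was at 0 in all libraries of any group. The part of these changes in those of *Synpo*, *Plce1* and *Cd2ap*, or of the 5 genes that fell, was not tested.

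Each gene was set against the podocyte core in the same kidney, as its log2(CPM + 0.5) minus the mean of that value over the 8 core genes. On this measure *Podxl* kept its distance between UNT and PBS (4.599 ± 0.14 and 4.62 ± 0.09, mean ± SD, n = 12 and 11). *Nphs1* fell by 0.74 relative to the core. The remaining 6 stood higher relative to it in PBS, by 0.36 for *Ptpro*, 0.44 for *Wt1* and 0.53 for *Magi2*, and by 1.57 for *Cd2ap*, 1.62 for *Plce1* and 1.80 for *Synpo*. These differences are descriptions on the log2 scale, with no test. The added 0.5 shrinks the changes of core genes of low level. *Lmx1b*, for one, was 0.454 to 1.25 CPM in UNT and 0.121 to 0.611 CPM in PBS mice. The core also includes the 2 genes not called, so these distances depend on the 0.5 and on the choice of core genes.

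The comparison of RGLS4326 with PBS asks what the anti-miR changed in cystic kidneys. Among the 8 podocyte genes, 4 were higher in RGLS4326 kidneys, *Nphs1*, *Wt1*, *Ptpro* and *Podxl*, and the other 4 did not pass the test. Over all tested genes 33.8% were called (15.3% higher, 18.5% lower). The changes were small, at most 0.37 on the log2 scale, the groups overlapped for all 8 genes, and the calls depended on a few libraries. The median log2 fold change of the 8 was 0.16, beside 0.00 over all tested genes. CPM ranges that did not overlap were found for 10 genes of all tested (0.0639%, with 0.0447% higher and 0.0192% lower), none of them a podocyte gene. The PBS mice are those of the comparison above, so a chance deviation of the PBS group would move both comparisons, in opposite directions.

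**Figure D3:**
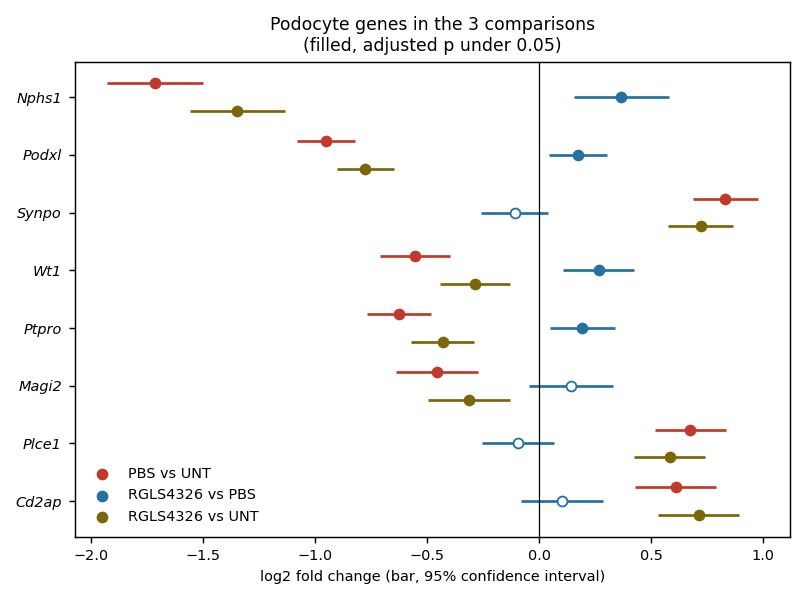
Log2 fold changes (x axis, with 95% confidence intervals from edgeR) of the 8 podocyte genes in the 3 comparisons, filled where the adjusted p was under 0.05. The changes of RGLS4326 vs PBS, between -0.11 and 0.37, are smaller than those of PBS vs UNT, between -1.71 and 0.83, and the comparisons share mice.

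*Nphs1* was 19.0, 24.9 and 36.8 CPM (lowest, median and highest) in RGLS4326 mice, beside 11.8, 20.7 and 26.1 CPM in PBS mice. Of the 11 treated kidneys 10 were above the PBS mean of 20.0 CPM, and 3 of them were above every PBS kidney, replicates 6, 7 and 11. The log2 fold change was 0.37 (SE 0.11, adjusted p = 0.0105). The mean of the treated kidneys was 39.3% of that of UNT.

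*Wt1* was 11.5, 15.5 and 20.2 CPM in RGLS4326 mice, beside 11.4, 14.3 and 15.3 CPM in PBS mice. Treated kidneys spread more widely than PBS kidneys (SD 2.77 against 1.23 CPM), with replicates 6, 7 and 11 the highest, and 10 of 11 were above the PBS mean. The difference was 0.27 on the log2 scale (SE 0.08, adjusted p = 0.0126).

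*Ptpro*, which holds a miR-17 seed match, was 23.1, 26.9 and 33.2 CPM in RGLS4326 mice, beside 16.6, 23.8 and 26.6 CPM in PBS mice. In 9 of 11 treated kidneys it was above the PBS mean. Its difference was 0.19 on the log2 scale (SE 0.07, adjusted p = 0.0358). *Podxl* was 207.8, 237.5 and 264.7 CPM, beside 159.8, 212.6 and 245.7 CPM in PBS mice, with 10 of 11 above the PBS mean, and its log2 fold change was 0.17 (SE 0.06, adjusted p = 0.0332).

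These last 2 calls were close to the threshold. That of *Podxl* was lost when any 1 of 5 libraries was left out (RGLS4326 replicates 3, 7 and 10, PBS replicates 2 and 11), with an adjusted p of up to 0.0693. That of *Ptpro* was lost without any 1 of RGLS4326 replicates 5, 7 and 11 or PBS replicates 2 and 11, up to 0.0810. Without RGLS4326 replicate 7, PBS replicate 2 or PBS replicate 11, 2 of the 8 genes were called. *Nphs1* and *Wt1* stayed called without any single library, with adjusted p up to 0.0252 and 0.0308.

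The other 4 genes did not pass the test, and the intervals of *Magi2* and *Cd2ap* hold changes as large as those of *Wt1*, *Ptpro* and *Podxl*. *Magi2*, the other gene with a seed match, was 10.3, 11.9 and 14.2 CPM in RGLS4326 mice, and its log2 fold change was 0.14 (95% confidence interval -0.04 to 0.33, adjusted p = 0.217). *Cd2ap* was 202.1, 258.3 and 325.3 CPM, with 0.10 (-0.08 to 0.29, adjusted p = 0.385). *Synpo* and *Plce1*, which were higher in PBS than in UNT, had values of -0.11 (-0.26 to 0.04, adjusted p = 0.237) and -0.09 (-0.25 to 0.07, adjusted p = 0.363), at 113.4, 147.5 and 168.9 CPM for *Synpo* and 23.0, 26.8 and 29.5 CPM for *Plce1*.

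The share of reads in no gene moved with the level of some of the 8 genes within groups, called or not. Across the 34 mice, after subtracting group means, its Pearson r with the log2 level was 0.64 for *Wt1*, 0.58 for *Nphs1*, 0.48 for *Cd2ap*, 0.39 for *Ptpro* and 0.28 for *Plce1*, and -0.04 for *Magi2*, -0.06 for *Podxl* and -0.18 for *Synpo*, where the points share their library with the share they are set against. In the 4 treated libraries above every PBS library in this share *Nphs1* was 25.1 to 36.8 CPM and in the 7 others 19.0 to 25.3 CPM, and *Wt1* was 14.9 to 20.2 CPM against 11.5 to 17.5 CPM. *Podxl* was 207.8 to 249.4 CPM in those 4 against 235.6 to 264.7 CPM, with medians of 224.6 and 243.8 CPM.

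Without those 4 libraries no podocyte gene was called between RGLS4326 and PBS by edgeR, and 1 of the 8 had an unadjusted p under 0.05. The log2 fold change was then 0.20 for *Nphs1* (adjusted p = 0.221), 0.14 for *Wt1* (adjusted p = 0.234), 0.13 for *Ptpro* (adjusted p = 0.286) and 0.22 for *Podxl* (adjusted p = 0.0754), and 332 of 15837 tested genes were called. With the share as a covariate in all 34 libraries, again none was called and 1 had an unadjusted p under 0.05, with log2 fold changes of 0.16 for *Nphs1* (adjusted p = 0.338), 0.11 for *Wt1* (adjusted p = 0.365), 0.11 for *Ptpro* (adjusted p = 0.398) and 0.18 for *Podxl* (adjusted p = 0.148). DESeq2 on all libraries called 4 of the 8. The share of reads in no gene also separated UNT (9.84% to 11.3%) from PBS libraries (5.18% to 8.995%). The 4 libraries left out, at 11.3% to 12.0%, were thus nearer to UNT in it. A property of the libraries and a response to treatment cannot be told apart in this share. Its part in the treatment result was not tested further.

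**Figure D4:**
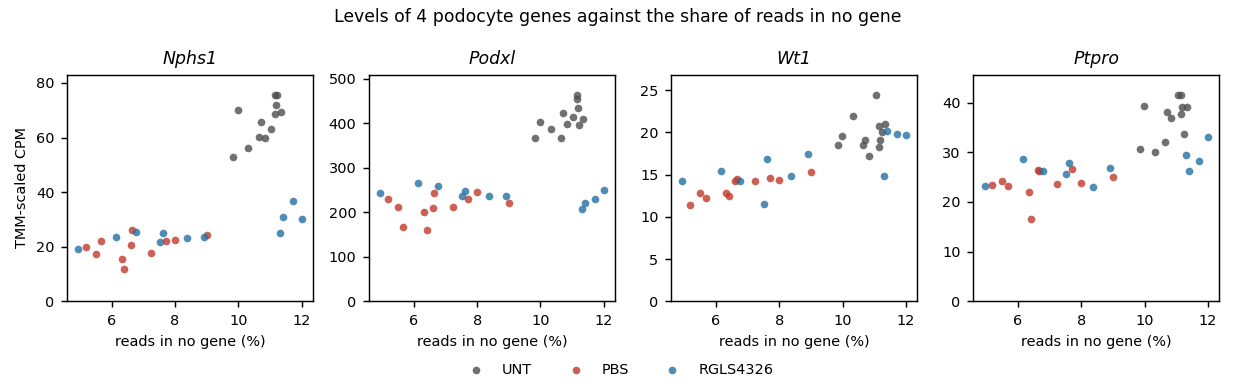
TMM-scaled CPM (y axis, from 0) of *Nphs1*, *Podxl*, *Wt1* and *Ptpro* in each kidney against the percentage of its reads that fell in no gene (x axis), coloured by group. The 4 RGLS4326 libraries above 11% hold the 3 highest treated values of *Nphs1* and of *Wt1*, and 1 of the 3 highest of *Podxl*.

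Within the library sets, the treatment change of *Nphs1* was 0.50 in set 1 (adjusted p = 0.138), 0.43 in set 2 (adjusted p = 0.0229) and 0.32 in set 3 (adjusted p = 0.346) on the log2 scale. *Wt1* had 0.25, 0.37 and 0.25 (adjusted p = 0.217, 0.0667 and 0.372). *Ptpro* had 0.25, 0.26 and 0.16, of which that of set 2 was called (adjusted p = 0.0467), and *Podxl* had 0.30, 0.01 and 0.24 (adjusted p = 0.151, 0.951 and 0.323). *Cd2ap* differed most in value, at -0.18 in set 1, 0.30 in set 2 (adjusted p = 0.0154) and 0.23 in set 3. Each set holds 3 or 4 mice a group, and edgeR on sets 1, 2 and 3 alone called 54, 4065 and 0 genes between RGLS4326 and PBS over all genes tested, with 3421, 6361 and 2826 at an unadjusted p under 0.05. Of the 8 podocyte genes 0, 3 and 0 were called, with 4, 4 and 0 at an unadjusted p under 0.05. All 3 treated libraries of set 2 are among the 4 that exceed every PBS library in reads in no gene. The test of the difference between sets called none of the 8 in any comparison, the smallest adjusted p being that of *Cd2ap* in PBS vs UNT (0.200, unadjusted 0.0134), while 2858 genes had an unadjusted p under 0.05 in that test and none an adjusted one.

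**Figure D5:**
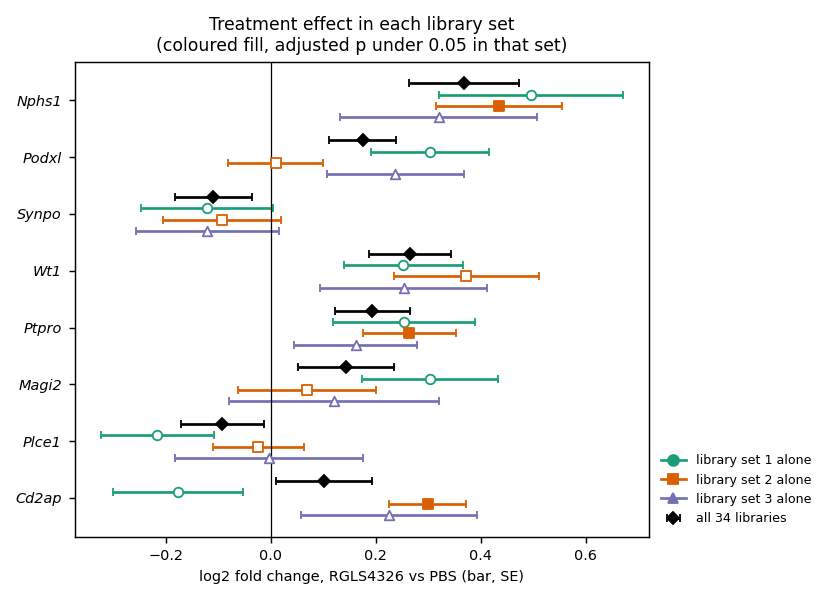
Log2 fold changes of RGLS4326 vs PBS (x axis, with SE) of the 8 podocyte genes over all 34 libraries (black diamonds) and within each of the 3 library sets (coloured, filled where the adjusted p in that set was under 0.05). *Nphs1*, *Wt1* and *Ptpro* lie above 0 in all 3 sets, *Podxl* is at 0.01 in set 2, and *Cd2ap* runs from -0.18 to 0.30.

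In the 40 further podocyte genes, 8 were higher (20%, beside 15.3% of all tested genes) and 3 lower (7.5%, beside 18.5%) in RGLS4326 than in PBS, and 29 did not pass the test, so the called share was 27.5%, beside 33.8% over all genes. Genes are again named by smallest p. The podocyte core had 4 of 8 higher, among them *Thsd7a* (0.51, SE 0.12) and *Clic5* (0.33, SE 0.08), and none lower. Of the slit diaphragm partners 2 of 11 were higher, among them *Trpc6* (0.46, SE 0.14), and of the other podocyte-enriched genes 4 of 10, among them *Robo2* (0.61, SE 0.12) and *Thsd7a*. Of the cytoskeleton genes 2 of 13 were higher (*Clic5* and *Ddn*, 0.45, SE 0.16) and 2 lower (*Arhgdia*, -0.37, SE 0.09, and *Myo1e*, -0.21, SE 0.08), and of the 6 transcription factors 1 was called, and it was lower. Without the 4 libraries highest in reads in no gene, edgeR called 2 of the 40, *Thsd7a* and *Robo2*, both higher, so that 1 of 8 genes of the core and 2 of 10 of the other podocyte-enriched genes remained and 0 of the slit diaphragm partners, the cytoskeleton genes and the transcription factors (2, 3 and 0 at an unadjusted p under 0.05). With that share as a covariate 0 of the 40 were called, and 8 had an unadjusted p under 0.05. The median log2 fold change of the core was 0.36 over all libraries, 0.26 without the 4 and 0.21 with the covariate. In the same order it was 0.20, 0.07 and 0.08 for the other podocyte-enriched genes and 0.07, 0.11 and 0.10 for the slit diaphragm partners. It was -0.10, -0.03 and -0.01 for the cytoskeleton genes and 0.09, 0.04 and 0.03 for the transcription factors.

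Of the other glomerular lists, which stand beside the same 15.3% higher and 18.5% lower over all genes, 7 of 12 endothelial genes were higher, among them *Kdr* (0.43, SE 0.09) and *Tek* (0.42, SE 0.09), and none lower. The basement membrane had 1 of 9 higher, *Col4a5* (0.23, SE 0.09), and 3 lower, among them *Itga3* (-0.46, SE 0.10) and *Cd151* (-0.33, SE 0.08). Mesangium and mural cells had 3 of 10 higher and 1 lower, and the parietal list 1 of 5 lower. Outside the glomerulus 6 of 10 proximal tubule genes and 4 of 6 of the thick limb and distal tubule were higher, while 4 of 9 of the collecting duct and 5 of 9 of macrophages and leukocytes were lower. The summed level of the proximal tubule list was 1455 to 4859 CPM in PBS and 3084 to 5158 CPM in RGLS4326 libraries, that of the endothelial list 749.3 to 1057 and 948.0 to 1182 CPM, and that of the macrophage list 1522 to 5110 and 1154 to 2635 CPM. Their part in the values of the 8 podocyte genes was not tested.

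Most of these calls were lost as well without the 4 libraries that have the highest percentage of reads outside genes, where 332 of 15837 tested genes were called, and with that percentage fitted as a covariate, where 89 of 15644 were. Without the 4 libraries edgeR called 4 of 12 endothelial genes, *Kdr* and *Tek* among them, 3 of 10 of mesangium and mural cells and 3 of 10 of the proximal tubule, all higher, with 11, 3 and 8 at an unadjusted p under 0.05. None was called of the basement membrane, the parietal list, the thick limb and distal tubule, the collecting duct or the macrophages and leukocytes, of which 4, 0, 3, 3 and 2 had an unadjusted p under 0.05. With the covariate 2 endothelial genes, 2 of mesangium and mural cells and 1 of the proximal tubule were called, all higher (11, 3 and 7 at an unadjusted p under 0.05), and none of the other lists (4, 0, 3, 1 and 2 at an unadjusted p under 0.05, in the same order). The median log2 fold changes of several of these lists stayed about as large where calls were lost. That of the endothelial genes was 0.21 over all libraries, 0.29 without the 4 and 0.27 with the covariate, that of the proximal tubule 0.62, 0.68 and 0.57, and that of the thick limb and distal tubule 0.44, 0.45 and 0.38. The medians of the collecting duct (-0.38, -0.16 and -0.16) and of macrophages and leukocytes (-0.46, -0.30 and -0.20) came closer to 0.

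Relative to the podocyte core in the same kidney, *Nphs1* was 0.07 higher in RGLS4326 than in PBS and the other 7 genes were lower, from -0.06 for *Wt1*, -0.11 for *Ptpro* and -0.12 for *Podxl* to -0.37 for *Plce1* and -0.41 for *Synpo*, on the log2 scale and with no test.

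Treated kidneys still differed from UNT in all 8 genes, in a comparison that called 77.7% of tested genes (40.8% higher, 36.9% lower) and that shares its mice with the 2 comparisons above. *Nphs1* (log2 fold change -1.35, SE 0.10), *Podxl* (-0.78, SE 0.06), *Ptpro* (-0.43, SE 0.07), *Magi2* (-0.31, SE 0.09, adjusted p = 0.00216) and *Wt1* (-0.29, SE 0.08, adjusted p = 0.00105) were lower. *Synpo* (0.72, SE 0.07), *Cd2ap* (0.71, SE 0.09) and *Plce1* (0.58, SE 0.08) were higher. The CPM ranges did not overlap for 4 of the 8, *Nphs1* and *Podxl* lower and *Synpo* and *Plce1* higher, as for 36.7% of all tested genes (20.7% higher, 16.1% lower). Relative to the UNT mean, treated kidneys held 82.0% of *Wt1*, 80.5% of *Magi2*, 74.1% of *Ptpro*, 58.4% of *Podxl* and 39.3% of *Nphs1*, and 165% of *Synpo*, 164% of *Cd2ap* and 150% of *Plce1*. By library size only, which moved the median of all genes to 0.33, the value of *Wt1* was 0.02 (adjusted p = 0.832) and 5 of the 8 genes were called, but relative to the median of all genes *Wt1* was -0.30 by library size and -0.31 by TMM factors. *Ptpro* and *Magi2* also lost their calls by library size, at -0.13 (adjusted p = 0.155) and -0.0069 (adjusted p = 0.944). Within library sets 1, 2 and 3 alone *Magi2* had -0.27, -0.28 and -0.44 (adjusted p = 0.0580, 0.0821 and 0.0776), and *Wt1* was not called in sets 2 and 3, at -0.18 and -0.30 (adjusted p = 0.286 and 0.123).

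Within groups the 8 genes did not vary as one. Over the 34 mice, with group means removed, the Pearson r of the log2 levels was 0.69 between *Nphs1* and *Ptpro*, 0.60 between *Podxl* and *Magi2*, 0.57 between *Podxl* and *Ptpro*, 0.52 between *Nphs1* and *Wt1* and 0.49 between *Plce1* and *Cd2ap*. *Synpo* had r = -0.01 with *Nphs1* and -0.14 with *Cd2ap*. The genes outside the list that were most like the mean of the 8 were *Epha3* (r = 0.77), *Kat6b* (0.76), *Plekhh2* (0.75), *Gltscr1l*, *Usp49* and *Dst* (0.73 each), and with the 2 farthest mice left out r was 0.70 to 0.73. The mean of the 8 itself had r = 0.48 (Spearman's rho 0.65) with the percentage of a library's reads outside genes. Taken one by one, *Nphs1* was most like *Insrr* (0.90) and *Ddn* (0.87), *Ptpro* like *Crb2* (0.76) and *Rdh1* (0.75), *Podxl* like *Leprel1* and *She* (0.77 each) and *Wt1* like *9330151L19Rik* (0.75) and *2810055G20Rik* (0.74). *Magi2* was most like *Nbr1* (0.82) and *Acvr1b* (0.81), *Synpo* like *Cmtr1* (0.74) and *Cherp* (0.72), *Plce1* like *Sparcl1* and *Col12a1* (0.84 each) and *Cd2ap* like *Zcchc6* (0.88) and *Socs6* (0.87). These correlations come from levels in the same libraries and are descriptions without a test.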

How the data were processed

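RNA of whole kidneys was sequenced by the authors as stranded poly(A) libraries. Per the labels and the study's methods, reads were mapped to GRCm38 with STAR and uniquely mapped reads were counted in genes with HTSeq 0.6.1; the annotation and strand setting are not given in the sources used here. The deposited values are raw counts per gene, with no normalization. Groups follow the labels. Genes were tested with edgeR 4.0.16 (R 4.3.3): TMM factors, the default low-count filter by group, and a quasi-likelihood test over all 34 libraries without covariates, with Benjamini-Hochberg adjustment over 15644 genes and a threshold of 0.05. Reads in no gene, ambiguous or not uniquely aligned were left out of library sizes. Counts were also simulated for PBS vs UNT (15574 genes), with few genes changed and the spread of each gene taken from the trend over level. The test recovered 98 of 99 genes changed by 1 and 64 of 100 changed by 0.5 on the log2 scale, with 12 false calls. In the data 82.1% of tested genes were called, so these figures do not describe that comparison.

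Each library was taken as 1 mouse by its number in the labels, and p-values measure the spread between these libraries. The same-numbered samples were not treated as pairs. Likeness, correlations and levels relative to the podocyte core used log2(CPM + 0.5). Besides the main test, 13 other settings were tried, DESeq2 1.42.0 among them, and leaving out each library in turn and leaving out the 4 RGLS4326 libraries highest in reads in no gene were chosen after seeing the data. The 8 genes and all lists were chosen with earlier results of these data known. Named were the 8 genes, at most the 2 higher and 2 lower genes of smallest p per list, genes most like the 8 and genes overlapping them; some genes of the lists are counted but not reported here by name. Gene positions and 3′UTRs come from the GENCODE annotation of GRCm38. No genome sequence was used.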

Additional observations from a re-analysis of the deposited data

How the results depend on the processing

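Over 14 alternative settings for the 8 genes, PBS vs UNT kept direction and call in 109 of 112 values and RGLS4326 vs UNT in 103 of 112, but RGLS4326 vs PBS in 87 of 112, with 21 no longer called, 1 newly called and 3 reversed. All 21 losses were of the 4 genes called there, whose calls held in 35 of 56 values. The genes called between RGLS4326 and PBS fell to 89 with the percentage of reads outside genes as a covariate, 332 without the 4 RGLS4326 libraries highest in that percentage, and 54, 4065 and 0 in library sets 1, 2 and 3 alone. Of the 8 podocyte genes edgeR called 0, 0, 0, 3 and 0 in these 5 fits (1, 1, 4, 4 and 0 at an unadjusted p under 0.05), and of the 40 further podocyte genes 0, 2, 0, 13 and 0 (8, 8, 9, 18 and 7 unadjusted). When only the RGLS4326 and PBS libraries entered the fit, 3 of the 8 and 7 of 39 further genes tested were called (4 and 17 unadjusted). DESeq2 was run on all 34 libraries without a covariate, where it called 4 of the 8, as edgeR did. *Cd2ap* in RGLS4326 vs PBS turned to -0.0325, -0.0079 and -0.18 with the covariate, without the 4 libraries and in set 1. With the percentage of reads lacking a unique alignment as a covariate, 7338 genes were called in PBS vs UNT and 7316 in RGLS4326 vs UNT, and *Wt1* in RGLS4326 vs UNT turned to 0.0528. By library size only, which moved the median of all genes in RGLS4326 vs UNT to 0.33, 5 of the 8 were called there and *Wt1* turned to 0.021, but stayed 0.30 below that median. The causes were not tested.

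With each library left out in turn, RGLS4326 vs PBS gave 4023 to 6209 called genes, 2 to 4 of the 8 and 7 to 15 of the 40, the lowest of the last without RGLS4326 replicate 6 or 11. PBS vs UNT gave 12712 to 12916, 8 to 8 and 35 to 36, and RGLS4326 vs UNT 12008 to 12379, 8 to 8 and 33 to 35. With the replicate number as a block, 12781, 5098 and 12162 genes and 8, 4 and 8 of the podocyte genes were called in PBS vs UNT, RGLS4326 vs PBS and RGLS4326 vs UNT. The labels do not say what the numbers stand for. Same-numbered libraries correlated above 0.1 in 1 to 5 of 11 pairs, and 1 or 2 of 11 were most like their own number. These correlations cannot show whether the mice were paired by design.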
